A study of Homo sapiens with 12 samples.

Results

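The alcohol dehydrogenase cluster was described as the peaks of 3 pooled ChIP-seq lists that overlap a 400 kb window of chromosome 4, from 99970000 to 100370000 in GRCh37. The window holds, in order of position, ADH5, ADH4, ADH6, ADH1A, ADH1B, ADH1C and ADH7, all on the minus strand. The RefSeq gene order also puts the PCNA pseudogenes PCNAP1 and PCNAP2 and several long non-coding RNA genes among them, which were not placed here. The rule used position alone and no measured value, and it found 52 peaks among the 273822 in the lists, of which 12 were H3K27ac, 37 H3K4me1 and 3 H3K4me3. The cells were HepG2, an established line derived from a human liver tumour, cultured without treatment. All 12 libraries came from this line, in 4 groups of 3, made with an antibody to H3K27ac, H3K4me1 or H3K4me3 or as a control that the titles call input and the antibody label calls an anti-mouse IgG. Per the series' design text, the marks were used to narrow down variants that may be causal. Each list pools the 3 libraries of its mark, so no value below has a replicate error, and no difference was tested. Values of the control libraries were not analysed here, and whether the line kept the identity of a hepatocyte could not be checked on peak positions alone.

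Alcohol dehydrogenases are zinc enzymes that use NAD to oxidise alcohols to aldehydes or ketones. ADH1A, ADH1B and ADH1C encode the class I subunits, which carry out most ethanol oxidation in adult liver. ADH4 encodes the class II enzyme of liver, and ADH6 encodes a class V form whose transcripts are found in liver. ADH5 encodes the class III enzyme, a glutathione-dependent formaldehyde dehydrogenase present in almost every tissue, and ADH7 the class IV enzyme of the upper digestive tract, which also oxidises retinol. In general, H3K4me3 marks the starts of active genes, H3K4me1 marks enhancers and the edges of promoters, and H3K27ac accompanies activity at both.

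A gene annotation of GRCh37 was not used here, so peaks are given by position. Where a peak is said to be placed at a gene, the placement rests on general knowledge of the map of this cluster and on the order of genes above, and was not checked against an annotation of that build. On that placement, the 3 H3K4me3 peaks lie at the starts of ADH5, ADH4 and ADH6, while the genes ADH1A, ADH1B and ADH1C lie in a stretch without a peak of any list.

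The promoter sequences are shown because the genes placed at an H3K4me3 peak differ among themselves in base composition, and because the class I genes, placed where no peak was found, have promoters that resemble each other closely. The RefSeq table of GRCh38.p14, which is not the build of the peaks, gave 8 promoter windows for 7 of the 7 genes, ADH7 having more than 1. The bases before the start are given 5′ to 3′ on the minus strand of chromosome 4, without coordinates. Capitals mark exact matches, on either strand, to TATAAA (the letters of a core promoter box), CCAAT (the box of that name), TTGCNNAA (C/EBP core), GTTAAT (HNF1 core), CAAAGTC (HNF4A core) or GGGCGG (GC box). The first 3 are the 250 bases before the starts of ADH5, ADH4 and ADH6.
ADH5: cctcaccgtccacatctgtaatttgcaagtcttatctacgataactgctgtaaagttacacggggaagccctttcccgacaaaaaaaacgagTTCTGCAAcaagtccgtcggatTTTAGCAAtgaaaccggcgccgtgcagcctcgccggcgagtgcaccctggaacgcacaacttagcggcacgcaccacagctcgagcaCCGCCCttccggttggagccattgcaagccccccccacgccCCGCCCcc
ADH4: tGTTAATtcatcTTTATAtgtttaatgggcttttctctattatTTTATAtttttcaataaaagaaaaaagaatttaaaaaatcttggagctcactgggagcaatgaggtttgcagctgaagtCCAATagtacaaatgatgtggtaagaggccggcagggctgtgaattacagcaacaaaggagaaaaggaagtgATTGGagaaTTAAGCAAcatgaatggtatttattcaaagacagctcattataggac
ADH6: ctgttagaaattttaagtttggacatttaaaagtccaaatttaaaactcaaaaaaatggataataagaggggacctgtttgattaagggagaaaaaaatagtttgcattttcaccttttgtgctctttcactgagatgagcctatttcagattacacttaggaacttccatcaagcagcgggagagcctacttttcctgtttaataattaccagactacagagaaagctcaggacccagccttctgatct
The class I genes are shown by the last 110 of those bases.
ADH1A: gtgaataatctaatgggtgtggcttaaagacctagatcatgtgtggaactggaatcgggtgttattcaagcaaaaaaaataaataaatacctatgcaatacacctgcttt
ADH1B: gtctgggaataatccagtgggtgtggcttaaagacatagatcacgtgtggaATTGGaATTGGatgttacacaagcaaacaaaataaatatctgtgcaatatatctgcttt
ADH1C: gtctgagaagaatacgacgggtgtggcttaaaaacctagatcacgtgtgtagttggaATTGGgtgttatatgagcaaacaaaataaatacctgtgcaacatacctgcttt

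The ADH5 promoter was the only one of the 7 with a GC content as high as the median promoter. Over the 250 bases it had 58.0% G and C and 21 CpG dinucleotides, against medians of 58.0% and 11 over 27305 promoters, 1 per gene. It held 2 GC boxes, a motif found in 42.3% of all promoters, and 2 C/EBP cores, a motif found in 9.13%. The other 6 genes had AT-rich promoters, with 31.6% G and C in ADH1A, 32.4% in ADH1B, 34.0% in ADH4, 35.6% in ADH1C, 36.4% in ADH6 and 38.8% in the first window of ADH7. ADH4, ADH6, ADH1A and ADH1B each had 1 CpG, ADH7 had 2 and ADH1C had 6. The ADH4 promoter held the most kinds of motif, with 2 matches to TATAAA, 2 to the CCAAT box, 1 to the C/EBP core and 1 to the HNF1 core. Both matches to TATAAA were on the opposite strand, 238 and 207 bases before the start. These letters occur, on either strand, in 11.1% of all promoters, the CCAAT box in 33.0% and the HNF1 core in 6.22%. In its first window ADH7 also held 2 matches to TATAAA, both on the opposite strand, and 1 to the C/EBP core. The shares over all promoters were not matched for base composition, and the median promoter is richer in G and C than every member except ADH5. No match to any of the 6 motifs was found in the 250 bases of ADH6, and the HNF4A core, which occurs in 2.94% of promoters, was found in none of the 7. A match is a run of letters and not a bound site.

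**Figure D1:**
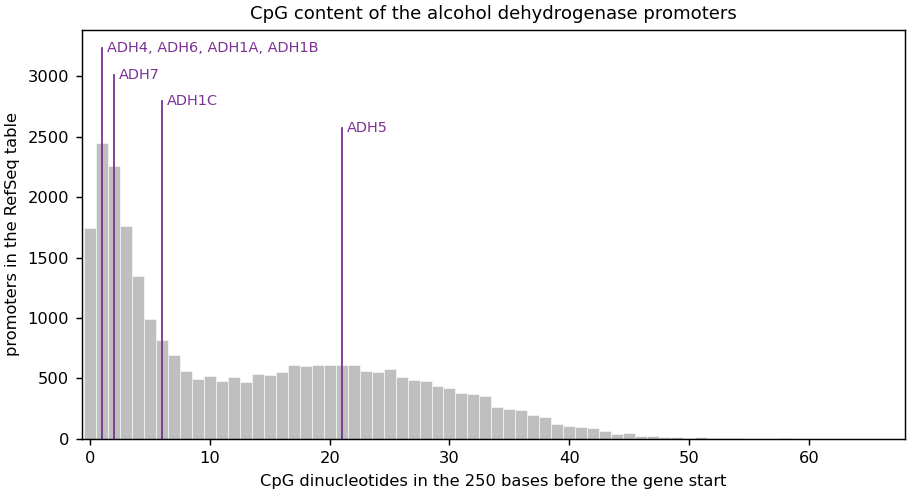
CpG dinucleotides in the 250 bases before the start (x axis) against the number of promoters in the RefSeq table (y axis, grey bars, 1 promoter per gene); purple lines mark the 7 alcohol dehydrogenase genes. ADH5 stands at 21, above the median of 11, and the other 6 genes at 1 to 6.

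The class I promoters resembled each other more closely than any other pair did. Aligned end to end over the 250 bases, ADH1A and ADH1B were identical at 82.2% of alignment columns, ADH1A and ADH1C at 81.5%, and ADH1B and ADH1C at 81.5%. Every other pair among the 7 lay between 44.9% and 55.1%. Each class I promoter had at least 1 CCAAT box, a motif found in 33.0% of all promoters. It was read on the opposite strand as ATTGG, with 1 in ADH1A, 2 in ADH1B and 2 in ADH1C. The match in ADH1A and 1 of those in ADH1C, 168 bases before the start, lie before the bases shown. Libraries were read as pairs of 51 bp, and how reads that match more than 1 place were treated is not given in the sources used here. The part of shared sequence in the absence of peaks over these genes was not tested.

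Across the window, H3K27ac and H3K4me1 peaks were more numerous than the mean of the genome and H3K4me3 peaks were not. All 3 marks covered a larger share of the window than of the genome, unsequenced parts included, though H3K4me1 only slightly. There were 12 H3K27ac peaks where the whole list would place 8.76 in that length, 37 H3K4me1 peaks against 24.1, and 3 H3K4me3 peaks against 3.22. The median tiled window of this length held fewer of each, with 3 H3K27ac, 13 H3K4me1 and 1 H3K4me3 peak. Of the 7578 tiled windows on chromosomes 1 to 22 and X, 28.0% held at least as many H3K27ac peaks, 28.0% at least as many H3K4me1 peaks and 40.0% at least as many H3K4me3 peaks, so that the density of marks in the cluster was not unusual. H3K27ac covered 3.99% of the window (3.04% of the genome), H3K4me1 7.06% (6.47%) and H3K4me3 2.12% (1.49%). Unsequenced parts lower the genome shares and means, and the H3K4me1 shares lie close enough for this to matter. Of the tiled windows, 26.3% had at least as much covered by H3K27ac, 31.4% by H3K4me1 and 26.1% by H3K4me3.

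The peaks were not spread evenly over the genes. In the first 100 kb, where ADH5 and ADH4 are placed, there were 4 H3K27ac, 14 H3K4me1 and 2 H3K4me3 peaks. In the second, where ADH6 is placed, there were 7, 16 and 1. The third 100 kb, from 100170000 to 100269999, where ADH1A and ADH1B are placed, held a single H3K4me1 peak of signal value 2.92 and neither of the other marks. The last 100 kb, where the start of ADH1C and all of ADH7 are placed, held 1 H3K27ac and 6 H3K4me1 peaks and no H3K4me3. The signal value is the authors' own, from their peak list, and most likely a fold enrichment at the summit, although its reference is not given in the sources used here. It is used below only to describe and rank peaks within 1 list.

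**Figure D2:**
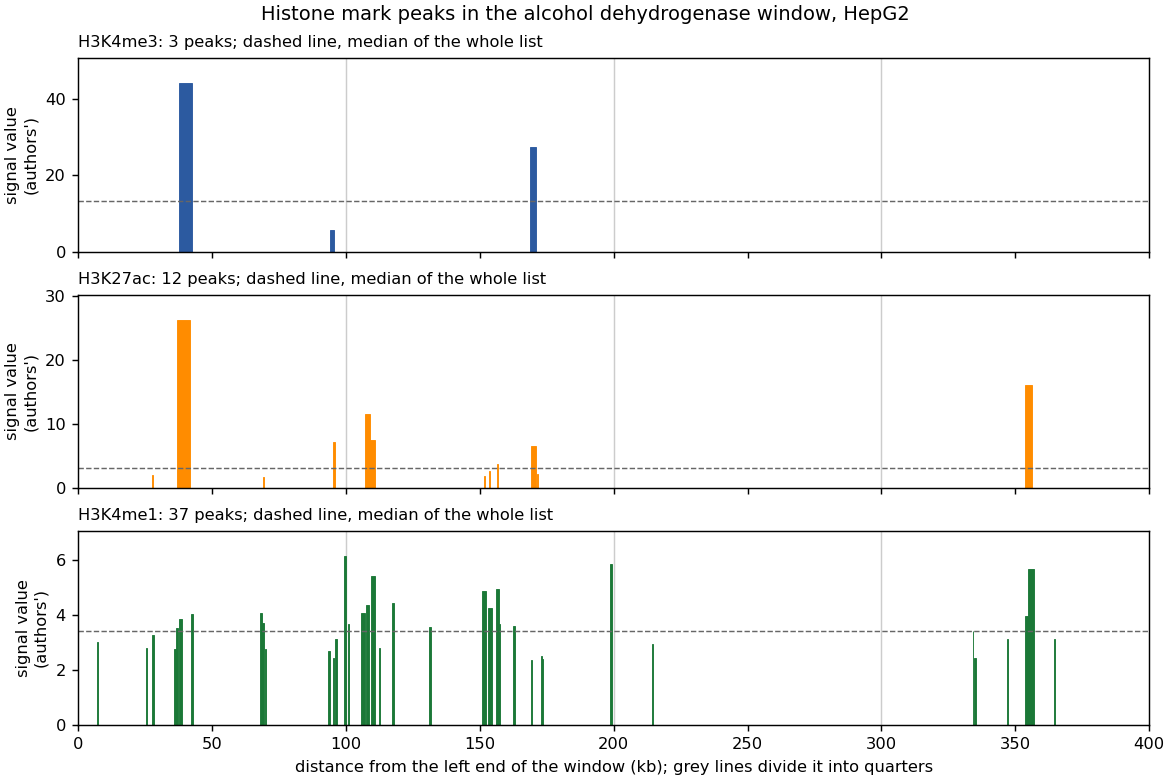
Peaks of the 3 lists along the window; the x axis is the distance from its left end in kb, each bar spans a peak and its height is the authors' signal value (y axis, a scale of its own for each mark). The 3 H3K4me3 peaks and 11 of the 12 H3K27ac peaks lie in the left part, and between 214.6 and 334.1 kb no list has a peak.

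The first H3K4me3 peak ran from 100007525 to 100012333 and is placed at the start of ADH5. Its signal value of 44.1 was higher than that of 77.5% of the 24446 H3K4me3 peaks, and its width of 4809 bp greater than that of 96.9%. The H3K27ac peak over it, from 100006726 to 100011561, had a signal value of 26.3, the highest of the 12 in the window and above 92.0% of the H3K27ac list. ADH5, known from almost every tissue, was thus placed at the peak of highest signal value and greatest width in the window in both lists. Among the 21074 H3K27ac peaks that overlap H3K4me3, whose median signal value was 13.1 (interquartile range 4.90 to 25.6), this one stood above 76.1%.

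The second H3K4me3 peak, from 100064097 to 100065607, is placed at the start of ADH4, the class II gene of liver. Its signal value was 5.82, above 36.8% of the list and below the list's median of 13.3. It was 1511 bp wide, close to the median width of 1536 bp. The H3K27ac peak that overlapped it, from 100064983 to 100066041, had a signal value of 7.27, above 33.8% of the peaks that overlap H3K4me3. Its H3K4me3 was the weakest of the 3.

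The third H3K4me3 peak, from 100138847 to 100141020, is placed at the start of ADH6, the class V gene, whose promoter has 1 CpG. Its signal value was 27.4, above 61.1% of the list, and its width 2174 bp. The H3K27ac peak over it, from 100139181 to 100141139, had a signal value of 6.63, above 31.5% of those that overlap H3K4me3. The marks thus ranked the promoters differently: by H3K4me3 the order was ADH5, ADH6, ADH4, and by H3K27ac it was ADH5, ADH4, ADH6, although the last pair, at 7.27 and 6.63, differed little and no error is known for either. Their −log10 q-values in the deposited list, 116.6 and 120.0, stood in the opposite order.

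All 3 H3K4me3 peaks overlapped H3K27ac and all 3 overlapped H3K4me1, as did 77.5% and 92.7% of the whole list. H3K27ac covered 83.9% of the bases of the ADH5 peak and 84.6% of the ADH6 peak, but 41.4% of the ADH4 peak. The summits of both marks nearly coincided, lying 51 bp apart at ADH5, 23 bp at ADH4 and 33 bp at ADH6. H3K4me1 was arranged differently at each. At ADH5 no H3K4me1 peak covered the H3K4me3 summit, and the nearest ended 1079 bp to the left and began 2495 bp to the right of it. At ADH4 an H3K4me1 peak of signal value 2.42 covered the summit. At ADH6 the nearest H3K4me1 peak ended 660 bp to the left, with a signal value of 2.36 and a −log10 q-value of 3.94. On the right the first began at 2804 bp. Over the whole list 40.6% of H3K4me3 summits lie inside an H3K4me1 peak, against 1 of the 3 here, which rests on that weak peak at ADH4. Since the 7 alcohol dehydrogenase genes are on the minus strand, the left of a summit is their transcribed side. The H3K4me3 peak of ADH5 reached 2108 bp to that side and 2700 bp to the other. The H3K4me3 peak of ADH4 reached 1202 bp to the left and 308 bp to the right, while its H3K27ac peak reached 316 bp and 742 bp. At ADH6 the H3K4me3 peak reached 1202 bp to the left and 971 bp to the right. The longer side was thus the transcribed one of the gene at ADH4 and ADH6, and the other one at ADH5. RefSeq order puts the long non-coding RNA gene LOC100507053 next after ADH5. Its start was not placed, so whether the ADH5 peak also covers it is unknown.

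**Figure D3:**
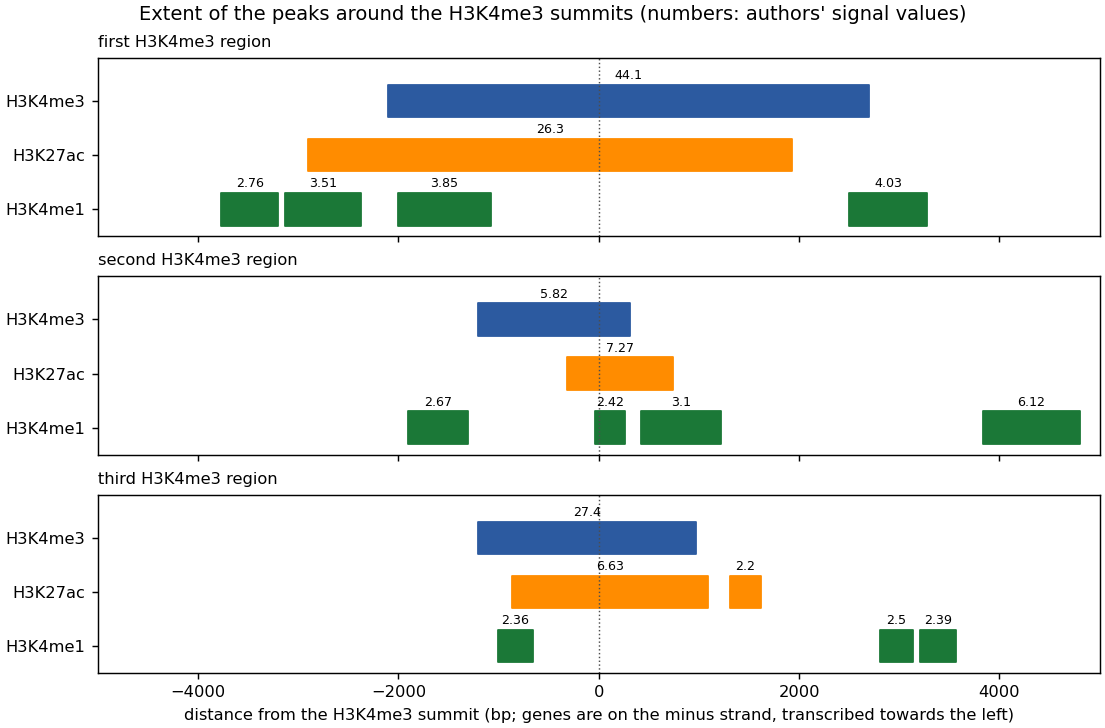
Extent of the peaks within 5000 bp of the H3K4me3 summits placed at ADH5 (top), ADH4 (middle) and ADH6 (bottom); the x axis is the distance from the summit in bp, rows are the marks and numbers are the authors' signal values. H3K27ac covers each summit. H3K4me1 covers the ADH4 summit with a peak of signal value 2.42, near the low end of its list, and stands to either side of the others.

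Away from H3K4me3 the window held 9 H3K27ac peaks. Of the 12 in all, 3 overlapped H3K4me3 (31.7% of the whole list do) and 11 overlapped H3K4me1 (87.4%). By combination, 3 carried both methylations (27.6%), 8 carried H3K4me1 without H3K4me3 (59.8%) and 1 carried neither (8.52%). These shares lie near those of the whole list. The peak with neither, from 100141356 to 100141667, had a signal value of 2.20 and lay 335 bp from the ADH6 H3K4me3 peak.

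A pair of neighbouring acetylated peaks lay between ADH4 and ADH6, on the upstream side of ADH4. The left one, from 100077246 to 100078757, had a signal value of 11.5, and the right one, from 100078986 to 100080799, had 7.49. Both exceeded the H3K27ac values at the H3K4me3 peaks of ADH4 and ADH6, 7.27 and 6.63, the right one only slightly. Among the 45439 H3K27ac peaks without H3K4me3, whose median signal value was 2.50, they stood above 95.0% and 89.9%. They began 11.6 and 13.4 kb from the ADH4 H3K4me3 peak, less than the class median of 15.5 kb. H3K4me1 covered 88.3% and 88.2% of their bases, with signal values of 4.36 and 5.40.

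The strongest acetylated region away from H3K4me3 ran from 100323578 to 100326415 and is placed between ADH1C and ADH7. Its signal value was 16.0, which is above 97.5% of the H3K27ac peaks without H3K4me3, and it was 2838 bp wide. H3K4me1 covered 92.3% of it, in peaks of signal value 3.96 and 5.65. The nearest H3K4me3 peaks lay 182.6 kb to the left, at ADH6, and 156.3 kb to the right, outside the window, and 4.23% of its class were as far from H3K4me3. Of that class 1131 had as high a signal value, at a median distance of 16.8 kb from H3K4me3, and 58 were both as strong and as far. This region was singled out after its values were seen, and no measurement here ties it to a gene.

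**Figure D4:**
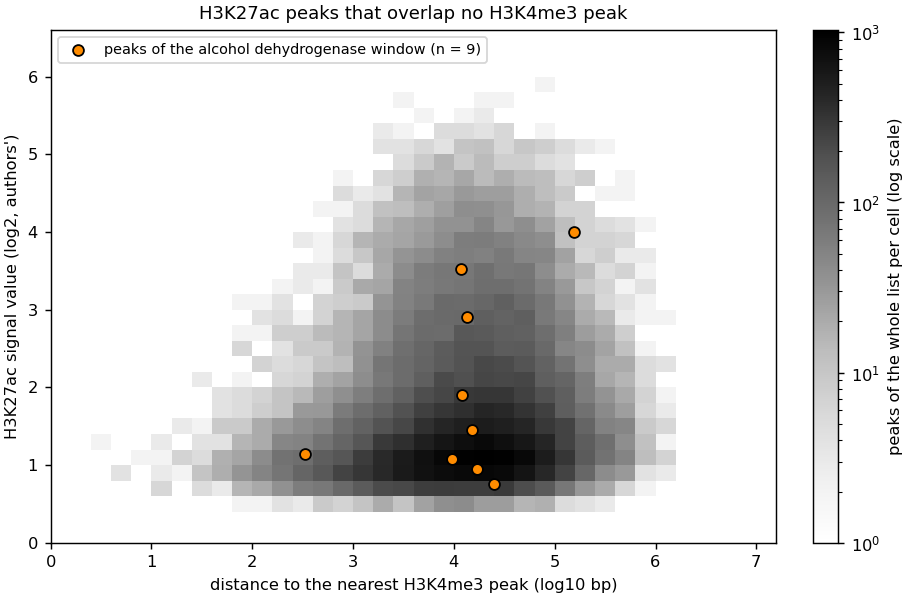
H3K27ac peaks without H3K4me3, by distance to the nearest H3K4me3 peak (x axis, log10 bp) and the authors' signal value (y axis, log2); grey cells count the 45439 peaks of the class and orange points are the 9 of the window. The rightmost point is the region between ADH1C and ADH7, with a signal value of 16.0 at 156.3 kb.

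The remaining 5 acetylated peaks were narrow, each 410 bp wide or less. A peak from 99997629 to 99997900, placed within ADH5, had a signal value of 2.12, and one from 100039070 to 100039318, placed between ADH5 and ADH4, had 1.69, the lowest of the 12. A group of 3 is placed at the far end of ADH6, from 100121598 to 100121970, from 100123414 to 100123750 and from 100126510 to 100126919, with signal values of 1.93, 2.74 and 3.75. The last of the group stood above 73.6% of the H3K27ac peaks without H3K4me3 and the middle one above 57.3%, while the other 3 of the 5 lay below the class median of 2.50. Each of the 5 was at least partly covered by H3K4me1.

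The 37 H3K4me1 peaks had signal values from 2.36 to 6.12 with a median of 3.57, against a median of 3.42 over the whole list. The highest, 6.12, ran from 100069132 to 100070106, 3833 bp to the upstream side of the ADH4 H3K4me3 summit, and overlapped no H3K27ac peak. The second, 5.85, ran from 100168572 to 100169491, placed between ADH6 and ADH1A, and also lacked H3K27ac. The next 3, with signal values of 5.65, 5.40 and 4.94, lay over acetylated peaks: that between ADH1C and ADH7, the right one of the pair upstream of ADH4, and that at the far end of ADH6. In all, 14 of the 37 overlapped H3K27ac (33.4% of the whole list do), 4 overlapped H3K4me3 (18.9%) and 22 overlapped neither (61.6%). The median signal value was 3.11 for those with neither other mark and 3.96 for the other 15. The same split of the whole list gave medians of 3.09 and 4.34.

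ADH1A, ADH1B and ADH1C, the class I genes that are characteristic of adult liver, are placed in a stretch from 100184583 to 100304059, 119.5 kb long, in which no list had a peak. Of the 169016 stretches between neighbouring peaks of any list, 2.14% were at least as long, but such long stretches together made up 43.8% of the length of the chromosomes, unsequenced parts included, so that lying in one is common. H3K27ac was missing from a longer stretch, of 181.9 kb, from 100141668 to 100323577. H3K4me3 was missing from 341.7 kb, from 100141021 to 100482713, where ADH1A, ADH1B, ADH1C and ADH7 are placed. The start of ADH7, a gene of the upper digestive tract, is placed in a further stretch without any peak, from 100334940 to 100457185. On its left that stretch was bordered by an H3K4me1 peak of signal value 3.11, from 100334343 to 100334939, and its right end lay outside the window. The absence of a peak means that none passed the authors' threshold in the pooled libraries, whose depth is unknown, and does not show that a mark or a transcript was absent.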

How the data were processed

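The 12 libraries were grouped by their titles. Each deposited list pools the 3 libraries of a mark, going by its name. The submitters' processing notes name MACS2 and hg19, with no role or version; the aligner, the threshold and the use of the controls are not given in the sources used here. The signal value of each deposited peak, read as a fold or ratio, and its −log10 q-value are the authors'. None of 69 chromosome ends in the lists passed its GRCh37 length (GenomeInfoDb 1.38.1). Depth per library and replicate spread are unknown.

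Peaks were counted where they shared at least 1 bp with the window or another peak, over chromosomes 1 to 22 and X. Percentiles are shares of a list with a lower value. Overlap code was tested on simulated intervals. Python 3.11.15, numpy 2.4.6, pandas 2.3.3, scipy 1.17.1 and matplotlib 3.10.9 were used. Members, motifs and alternatives were chosen with earlier results of these data known. The named peaks were all H3K4me3 and H3K27ac peaks of the window and its 5 strongest H3K4me1 peaks. Counts of marked gene starts, the other genes of alcohol metabolism and other liver clusters were not analysed here, for want of a GRCh37 annotation. Genes other than the 7 were therefore not placed.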

Additional observations from a re-analysis of the deposited data

How the results depend on the processing

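No paired analysis was possible because each list pools its replicates and no result comes from a test; for the same reason no replicate could be left out. Of 55 alternative settings listed for these results, 15 were not run, since they need gene starts. The other 40 values covered 10 results: 24 were counts within 1.5 times the reported count or coverages that did not change, and the 16 others are given below. Among the 24, H3K27ac peaks numbered 9 at a −log10 q-value of at least 5 and 10 after joining, 9 of the 12 overlapped H3K4me1 by 50% coverage or by summit, and 10 H3K4me1 peaks had their summit in H3K27ac. The peaks at ADH5, ADH4 and ADH6 overlapped H3K27ac under each alternative run except 50% coverage, which kept 2, and the stronger 50% of each list, which removed the ADH4 peak.

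Where the −log10 q-value had to reach 5, 24 H3K4me1 peaks remained, covering 5.68% of the window, H3K27ac covered 3.77%, 7 H3K27ac peaks overlapped H3K4me1 and 9 H3K4me1 peaks overlapped H3K27ac. The stronger 50% of each list gave 7 H3K27ac peaks (3.61% of the window), 20 H3K4me1 peaks (5.17%) and H3K4me3 over 1.75%, with 5 H3K27ac peaks overlapping H3K4me1 and 7 the reverse. Joining peaks within 1000 bp gave 24 H3K4me1 peaks (8.00%) and H3K27ac over 4.10%. Requiring 50% coverage left 8 H3K4me1 peaks overlapping H3K27ac. Fewer or joined peaks follow from how these alternatives are built.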

Other observations

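The windows of the same length on either side of the cluster held 39 and 20 peaks, against 52 in the cluster. The one before it, on the side where RefSeq order puts METAP1, held 7 H3K27ac, 29 H3K4me1 and 3 H3K4me3 peaks, and the one after it, on the side of C4orf17, TRMT10A and MTTP, held 4, 14 and 2. H3K27ac covered 2.89% and 1.20% of them, against 3.99% of the cluster. H3K4me3 covered 2.30% before the cluster and 1.30% after it, against 2.12% within. The H3K4me3 peaks nearest to the window ran from 99915378 to 99918787, with a signal value of 51.5, and from 100482714 to 100485847, with 34.7. The first of these was stronger than each of the 3 H3K4me3 peaks of the cluster.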
